A study of Homo sapiens with 24 samples.

Results

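The J82 line with high CD44v6 was compared with the J82 line with high CD44 across all genes, using 6 of the 24 RNA-seq libraries of a study of bladder cancer cells. The members are the 3 libraries labelled J82 CD44v6 and the 3 labelled J82 CD44 High. J82 is an established human bladder cancer cell line. Both lines were derived from it, and the labels give high CD44v6 receptor expression for the first and high CD44 receptor expression for the second. Neither label says how the lines were made, whether either is 1 clone, or what total CD44 or v6 level the other line carries, and no drug or other treatment is given. J82 parental and J82 CD44 Low (low CD44 receptor expression), each with 3 libraries, share the fit. The same 4 groups of RT-112, another bladder cancer line, serve for the test between lines. The replicates are described as biological. Of 35993 gene symbols in the count table, 15951 had enough counts to be tested.

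CD44 is a surface receptor for hyaluronan, a sugar polymer of the matrix around cells. Its transcript holds a block of variant exons that can be spliced in or left out, and proteins with the v6 segment are known to act as partners of the receptors MET and KDR. In many tumours CD44 and its variants are used to mark cells that adhere, migrate or resist drugs differently from their neighbours. A count per gene sums all CD44 transcripts, so the v6 isoform itself was not measured here.

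The 6 libraries held 16752825 to 22698239 counts. CD44v6 replicate 2 stood apart: it lay at -68.6 on the second principal component of the 12 J82 libraries, where the other 11 lay from -18.1 to 31.6, and received a quality weight of 0.262 from limma. The biological coefficient of variation was 0.246 in CD44v6 and 0.164 in CD44 High. The main lists below are therefore also given without that library, and so are the genes given with a fold change whose unadjusted p then crosses 0.05 or whose difference then moves by more than 1.5 times. Keratins KRT8 and KRT18 were abundant in both groups, while of 7 urothelial markers UPK2, KRT20 and KRT5 had 0 counts and GATA3 had 5 counts in each group. PPARG (37 to 54.2 CPM) and FOXA1 (2.61 to 5.81 CPM) were present, and the urothelial markers summed to 39.6 to 51.2 CPM in CD44v6 and 49 to 59.4 CPM in CD44 High. Both groups also held mesenchymal markers at similar levels, such as VIM (summed mesenchymal markers 1150 to 1430 CPM in CD44v6 and 1240 to 1410 CPM in CD44 High; CPM is the read count scaled to a common library size). Endothelial and neural markers summed to under 1 CPM in each library. Among leukocyte markers CD3E had 0 counts in both groups, and PTPRC and LYZ each had 2 counts in CD44 High and 0 in CD44v6. CD68, also a lysosomal protein of other cells, made up nearly the whole leukocyte sum of 104 to 191 CPM in CD44v6 and 142 to 222 CPM in CD44 High.

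CD44 itself was at a similar total level in both lines. It stood at 725, 1076 and 618 CPM in the 3 CD44v6 libraries and at 717, 772 and 714 CPM in the 3 CD44 High libraries. The groups overlapped, and the high value belonged to CD44v6 replicate 2. The log2 fold change, CD44v6 minus CD44 High, was 0.14 with an SE of 0.16 (edgeR quasi-likelihood F-test, Benjamini-Hochberg adjusted p = 0.797), and -0.13 without that library. Among 9 tested genes of CD44 and hyaluronan, HMMR, a hyaluronan-binding protein that also sits on the mitotic spindle, was lower by 0.40 (unadjusted p = 0.0267), and by 0.19 (unadjusted p = 0.0767) without CD44v6 replicate 2. Of 18 tested partners of CD44v6, MET, the HGF receptor, was at 372, 390 and 372 CPM in CD44v6 and at 421, 426 and 413 CPM in CD44 High. All 3 CD44v6 values lay below the CD44 High values, and the log2 fold change was -0.15 (adjusted p = 0.518). KDR, a VEGF receptor, was at 2.02, 1.97 and 2.16 CPM against 1.13, 0 and 1.21 CPM. All 3 CD44v6 values lay above the CD44 High values, 1 of which was 0, and the unadjusted p was 0.0471 (0.0625 without CD44v6 replicate 2). None of 24 tested regulators of CD44 splicing reached an unadjusted p under 0.05, and their median log2 fold change was 0.00. SRSF3, a splicing factor of the SR family, was at 369, 320 and 346 CPM against 399, 421 and 355 CPM, which overlap.

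No gene passed an adjusted p under 0.05 in edgeR, so 0% of the 15951 genes were called, and the smallest adjusted p was 0.105. At an unadjusted p under 0.05, 954 genes (5.98%) were higher in CD44v6 and 582 (3.65%) were lower. The 3 CD44v6 values lay wholly above the 3 CD44 High values for 929 genes (5.82%) and wholly below for 995 (6.24%). Without CD44v6 replicate 2, 605 genes (3.79%) were higher and 386 (2.42%) lower at the same unadjusted p. The DESeq2 Wald test gave an adjusted p to 6673 genes and called 74 of them, 53 higher (0.794%) and 21 lower (0.315%). Of those 21, 10 belong to a list of 51 mitosis genes.

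Genes lower in CD44v6 were led by KPNA2, an importin that carries proteins into the nucleus. KPNA2 was at 380.4, 336 and 387 CPM in CD44v6 and at 547, 549 and 547 CPM in CD44 High. The CD44 High values lay within 3 CPM of each other and far above the CD44v6 values. Its log2 fold change was -0.57 (SE 0.08, adjusted p = 0.105 in edgeR and 8.74e-10 in DESeq2). LAMA4, a laminin chain of the basement membrane, was at 28.2, 31.0 and 30.8 CPM against 51.7, 54.7 and 47.1 CPM, with a log2 fold change of -0.77 (adjusted p = 0.122). The values did not overlap, and the difference was -0.79 without CD44v6 replicate 2. FAM83D, a protein that helps place chromosomes on the spindle, was at 93.4, 85.7 and 107 CPM against 147, 136 and 149 CPM, lower by 0.59 (adjusted p = 0.163). JAGN1, a protein of the endoplasmic reticulum, and PRR11 were also among the 10 genes of at least 3 average log2 CPM that ranked first by p among those lower without overlap, with log2 fold changes of -0.79 and -0.38. So was BSCL2, the gene of seipin, at -1.04. BSCL2 shares exons with the readthrough gene HNRNPUL2-BSCL2, which had 0 counts in all 3 CD44 High libraries and 25.8, 40.1 and 25.5 CPM in CD44v6, so reads may have been divided between them and both values are uncertain. The other members of those 10 were KIF20A, CCNB1, UBE2C and CDCA8, all mitosis genes described below. Among scarcer genes the lower side held NRSN2-AS1, RAET1E, PPOX and ZNF771, with log2 fold changes of -0.73, -1.73, -0.87 and -0.67. P2RX5-TAX1BP3, a readthrough gene that shares exons with both its neighbours, was at -2.68 and is uncertain for the same reason. NRSN2-AS1 is an antisense gene, and whether counting used strand is not given in the sources used here.

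Genes higher in CD44v6 were led by DOCK11, which activates the small GTPase CDC42. DOCK11 was at 62.4, 57.3 and 55.9 CPM in CD44v6 and at 43.4, 41.4 and 37.8 CPM in CD44 High, with a log2 fold change of 0.52 (adjusted p = 0.122). All 3 CD44v6 values lay above the CD44 High values, and the difference was 0.53 without CD44v6 replicate 2. EPB41L5, a cytoskeletal adaptor linked to epithelial polarity and cell movement, was at 54.6, 60.4 and 62.2 CPM against 41.6, 44.5 and 45.4 CPM, higher by 0.43 (adjusted p = 0.201). CASP8AP2, needed for histone RNA production, and USP53 were higher by 0.54 and 0.57. LRP2, the endocytic receptor megalin, was at 8.32, 13.9 and 8.35 CPM against 3.78, 5.10 and 5.43 CPM, and was at 42.0 to 47.6 CPM in J82 CD44 Low. BOD1L1, TEX15, ANKRD12, BDP1 and ZNF292 completed the leading 10, with log2 fold changes of 0.61, 0.64, 0.59, 0.51 and 0.65. Each of these 10 has a longest annotated transcript of 6072 to 15808 bases, which bears on the length pattern below. At lower levels SYT16, EPHA5, INKA2 and ZNF571 were higher without overlap, SYT16 by 1.71, INKA2 by 0.78 and ZNF571 by 0.98. EPHA5, an ephrin receptor, was at 4.68, 3.52 and 3.82 CPM against 1.78, 2.28 and 1.95 CPM.

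Genes of mitosis were lower as a group in CD44v6. Of 51 tested members, 31 were lower and 0 higher at an unadjusted p under 0.05, beside 3.65% and 5.98% of all tested genes. For 27 members all CD44v6 values lay below all CD44 High values, beside 6.24% of all genes. The median log2 fold change of the list was -0.30, where that of all genes was 0.00. Single members did not pass the adjusted threshold in edgeR. Mitosis genes are switched on together before cell division, and many of their promoters are known to carry a cell cycle homology region (CHR) and CCAAT boxes, through which the DREAM complex and the factors B-MYB and FOXM1 act. In bulk RNA, fewer dividing cells and less RNA per dividing cell cannot be told apart.

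Cyclin B1 (CCNB1), which with CDK1 drives entry into mitosis, was at 326, 223 and 317 CPM in CD44v6 and at 458, 443 and 438 CPM in CD44 High. Its log2 fold change was -0.63 (SE 0.13, adjusted p = 0.201 in edgeR and 0.000988 in DESeq2). The CD44v6 values lay below those of CD44 High and also below the parental ones (363 to 384 CPM). KIF20A, a motor protein of late mitosis, was at 118, 93.7 and 116 CPM against 161, 158 and 152 CPM, lower by 0.53 (adjusted p = 0.201). KIF20A overlaps exons of BRD8 and CDC23 on the other strand. UBE2C, the ubiquitin enzyme of the anaphase-promoting complex, was at 106, 83.9 and 123 CPM against 164, 163 and 174 CPM, lower by 0.68 (adjusted p = 0.253). CDCA8, a subunit of the chromosomal passenger complex, was at 71.6, 71.1 and 82.8 CPM against 101, 95.5 and 112 CPM, lower by 0.45. In each of these 4 genes the lowest CD44v6 value came from replicate 2, and the other 2 CD44v6 libraries also lay below CD44 High. Other members lower at an unadjusted p under 0.05 included CDK1 (-0.48), securin PTTG1 (-0.38), the centromere histone CENPA (-0.53), Aurora A (AURKA, -0.63), CCNB2 (-0.49), survivin (BIRC5, -0.35) and TOP2A (-0.32). For TOP2A the value was -0.20 (unadjusted p = 0.103) without CD44v6 replicate 2. PLK1 was at -0.26 with overlapping values, and at -0.41 (unadjusted p = 0.0289) without CD44v6 replicate 2.

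The 8 members with a positive log2 fold change were longer. Their longest transcripts had a median of 7943 bases, beside 2917 bases for the 31 lower members. MKI67, the Ki-67 proliferation antigen, was at 499, 974 and 380 CPM in CD44v6 against 425, 432 and 575 CPM, with the outlying value in replicate 2. Its log2 fold change was 0.37, and -0.12 without that library. CENPF, a kinetochore protein, was at 1201, 1166 and 1088 CPM against 1183, 785 and 1015 CPM. Among the 42 members outside the longest bin of transcript length (5717 bases and more) the median was -0.33. Without CD44v6 replicate 2 the list median was -0.23, with 25 members lower and 0 higher (2.42% and 3.79% of all genes). With offsets for transcript length and GC content it was -0.27, with 34 members lower and 0 higher (4.34% and 4.90% of all genes). With both it was -0.23, with 28 members lower.

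Relative to the mean of CD44 High, the mean log2 level of the mitosis list was -0.22, -0.40 and -0.20 in the CD44v6 libraries. It was 0.02, -0.06 and 0.05 in the CD44 High libraries themselves, -0.08 in each parental library, and -0.43, -0.64 and -0.40 in CD44 Low. The 3 CD44v6 values lay below the parental values, and that of replicate 2 was level with the highest CD44 Low value. The median log2 fold change of the list was 0.10 in CD44 High against parental cells and -0.21 in CD44v6 against parental cells, 2 comparisons that share the parental libraries and, each, a group with the main comparison.

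**Figure D1:**
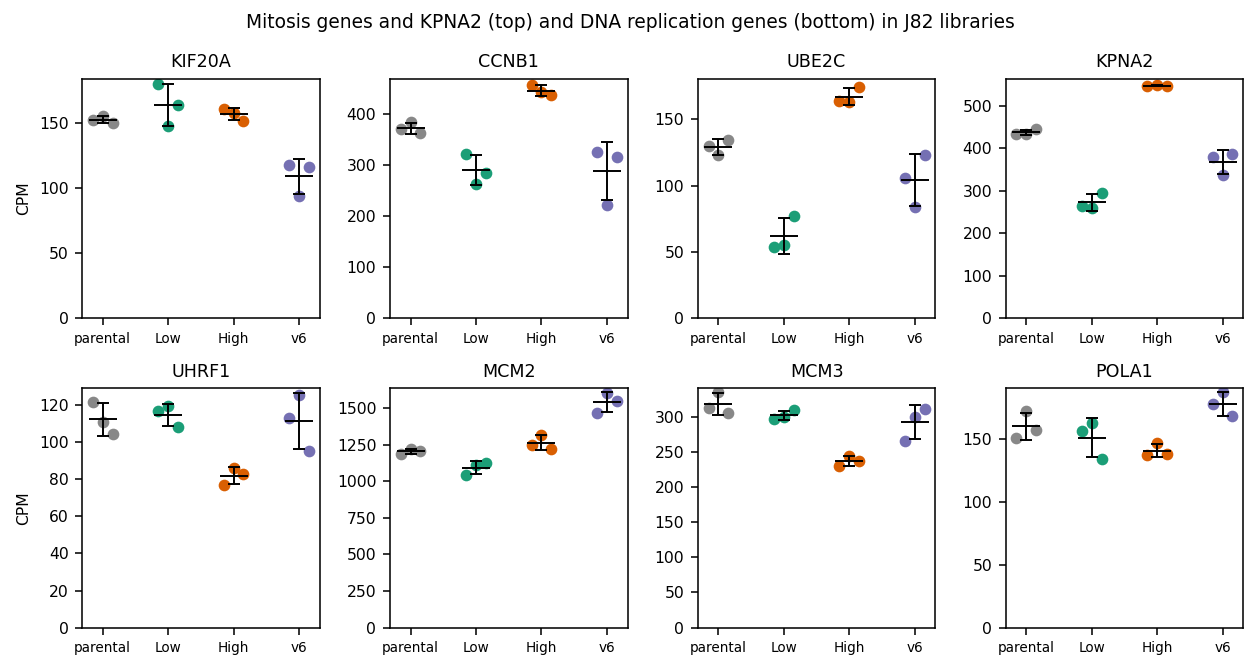
Levels in CPM (vertical axes from 0) of 8 genes in the 4 J82 groups; dots are libraries in the order 1 to 3, horizontal lines are means and bars are SD of 3 libraries. KIF20A, CCNB1, UBE2C and KPNA2 are lower in CD44v6 than in CD44 High without overlap, and UHRF1, MCM2, MCM3 and POLA1 are higher without overlap.

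The promoters of the mitosis members are shown because the members were lower together. RefSeq windows (build GRCh38.p14) matched 43 of the 51 members. In the 250 bases before the transcript start, on either strand, the CHR letters TTTGAA were present in 22 of the 43 (51.2%), beside 8.59% of the promoters of tested genes and 13.6% of the 27305 promoters in the table. The related letters TTTAAA were in 30.2%, beside 7.44% and 11.4%. A CCAAT box was present in 74.4%, beside 35.5% and 33.0%. Among the 24 lower members with a window, 12 held TTTGAA and 19 CCAAT. For TTTGAA this share was no larger than that of the whole mitosis list (22 of 43), of which the 24 are part. For CCAAT it was near that of the whole list (79.2% beside 74.4%). The list of DNA replication genes held TTTGAA in 2.38% and CCAAT in 54.8% of 42 promoters. The lists were chosen by gene function, so their contrast cannot tell whether the letters go with being lower, which was not tested. A match describes letters and shows no binding. The 150 bases before the start of the 4 members with the smallest p that have a window are printed 5′ to 3′ on the gene's strand, with CHR letters (TTTGAA or TTTAAA) and CCAAT boxes of either strand in capitals; in CDCA8 the motifs share 1 base, and in PTTG1 2 CCAAT boxes of opposite strands overlap. The windows are chr5:138178962-138179111 for KIF20A, chr5:69167000-69167149 for CCNB1, chr1:37692366-37692515 for CDCA8 and chr5:160421705-160421854 for PTTG1, all on the plus strand.
KIF20A: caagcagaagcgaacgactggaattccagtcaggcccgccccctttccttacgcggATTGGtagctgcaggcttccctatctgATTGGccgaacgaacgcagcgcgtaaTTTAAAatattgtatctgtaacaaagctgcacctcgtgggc
CCNB1: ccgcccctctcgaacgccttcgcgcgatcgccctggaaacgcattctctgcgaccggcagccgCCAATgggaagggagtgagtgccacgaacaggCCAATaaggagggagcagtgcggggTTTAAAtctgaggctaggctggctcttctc
CDCA8: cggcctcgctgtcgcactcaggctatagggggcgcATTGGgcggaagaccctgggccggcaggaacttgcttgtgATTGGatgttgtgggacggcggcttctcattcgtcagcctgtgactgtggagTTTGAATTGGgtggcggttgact
PTTG1: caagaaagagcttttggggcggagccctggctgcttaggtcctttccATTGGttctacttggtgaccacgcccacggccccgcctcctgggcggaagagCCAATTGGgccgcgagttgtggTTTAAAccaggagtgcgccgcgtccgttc
KIF20A, CCNB1 and PTTG1 carry the TTTAAA form downstream of 2 or 3 CCAAT boxes, and CDCA8 the TTTGAA form.

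DNA replication genes, which act earlier in the cell cycle, lay on the other side of 0. Of 50 tested members, 6 were higher and 0 lower at an unadjusted p under 0.05, beside 5.98% and 3.65% of all genes. Without overlap 8 were higher and 0 lower, beside 5.82% and 6.24%. The list median was 0.11, and 0.13 without CD44v6 replicate 2. MCM2, a subunit of the replicative helicase, was at 1468, 1604 and 1548 CPM in CD44v6 against 1251, 1319 and 1221 CPM, higher by 0.29 (SE 0.07, adjusted p = 0.344). UHRF1, which keeps DNA methylation through replication, was at 113, 126 and 95.6 CPM against 77.0, 86.0 and 82.8 CPM, higher by 0.45 (adjusted p = 0.341). MCM3 and POLA1, the catalytic subunit of DNA polymerase alpha, were higher by 0.30 and 0.34, also without overlap. Without replicate 2, 11 members were higher and 0 lower, beside 3.79% and 2.42% of all genes. With length and GC offsets 13 were higher and 0 lower, beside 4.9% and 4.34%, with a median of 0.14. Of 21 tested G1 cyclins, CDKs and their inhibitors, 4 were higher and 0 lower at an unadjusted p under 0.05 (5.98% and 3.65% of all genes). Without CD44v6 replicate 2, 3 were higher and 1 lower (3.79% and 2.42%). The CDK inhibitor CDKN2B was at 51.9, 45.8 and 54.5 CPM against 31.7, 37.4 and 39.9 CPM, higher by 0.48 (adjusted p = 0.201). Cyclin E2 (CCNE2), which acts at the start of S phase, was at 89.0, 78.6 and 113 CPM against 64.7, 67.5 and 63.4 CPM, higher by 0.52 (adjusted p = 0.397). RBL1 was higher by 0.19. CDK6 was at 0.40 with overlapping values, and at 0.18 (unadjusted p = 0.219) without CD44v6 replicate 2. Replication-dependent histones had a median of 0.05 over 49 genes, with 1 higher and 0 lower. Their reads can be split between near-identical copies.

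In RT-112 the same comparison gave other values for these lists. The mitosis list had a median of -0.05 in RT-112, with 2 members lower and 0 higher at an unadjusted p under 0.05 (2.93% and 1.32% of 15645 genes). CCNB1 had a log2 fold change of 0.05 in RT-112, KIF20A 0.16 and UBE2C 0.02. The difference between the lines, tested over 24 libraries and 17438 genes, had an unadjusted p under 0.05 in the direction of lower in J82 for 19 of 51 mitosis members (4.41% of all genes) and in the other direction for 2 (5.03%). None of the 51 passed the adjusted threshold with all 24 libraries. For KIF20A that unadjusted p was 0.000344, and for CDCA8 0.000223. These values rest in part on RT-112 CD44 High replicate 2. Without it the RT-112 median of the list was -0.05, and 10 mitosis members were called lower in RT-112 and 0 higher, beside 2.72% and 0.0703% of all genes. The line difference then had an unadjusted p under 0.05 toward lower in J82 for 14 members (5.34% of all genes) and toward higher for 9 (7%). It passed the adjusted threshold for 2 members lower and 5 higher in J82, beside 0.172% and 2.18% of all genes. The DNA replication list had a median of -0.03 in RT-112, and 0.08 without that library.

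**Figure D2:**
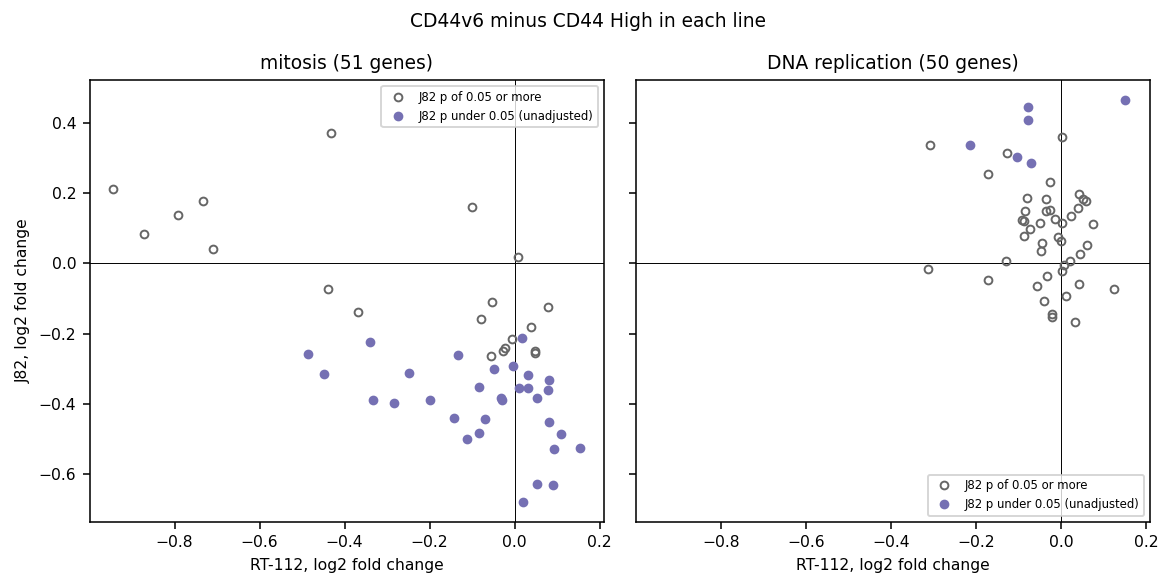
Log2 fold changes (CD44v6 minus CD44 High) of mitosis genes, 51, and DNA replication genes, 50, in RT-112 (horizontal) and J82 (vertical). Filled points have an unadjusted p under 0.05 in J82; 31 mitosis genes are filled below 0, and their RT-112 values lie on both sides of 0.

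CDH1, the gene of E-cadherin, which joins epithelial cells, was scarce in J82 and higher in CD44v6. It had 40, 27 and 32 counts in CD44v6, at 1.97, 1.61 and 1.77 CPM, and 12, 11 and 9 counts in CD44 High, at 0.522, 0.545 and 0.474 CPM. The groups did not overlap (1.78 ± 0.18 against 0.514 ± 0.036 CPM, SD, n = 3). With so few counts per library, these SDs and the SEs below are themselves uncertain. Parental cells had 46 to 53 counts and CD44 Low 87 to 113, so CD44v6 lay between CD44 High and parental cells. The log2 fold change was 1.78 (SE 0.26, adjusted p = 0.105) in the J82 fit, and 1.85 without CD44v6 replicate 2. It was 1.79 (adjusted p = 0.782) with the 6 libraries of the 2 groups alone. In a fit over all 24 libraries it was 1.79 with an adjusted p of 0.000101. That fit, like the test between the lines, takes the spread of CDH1 also from RT-112, where its counts are far higher. With all 24 libraries CDH1 was the only gene of 17438 (0.00573%) whose difference between the lines passed, with CD44v6 minus CD44 High larger by 1.61 in J82 (SE 0.21, adjusted p = 0.0034). Over the fits that left out 1 J82 or RT-112 library in turn, the adjusted p of CDH1 ran from 0.000257 to 0.0375. The number of genes that passed was 410 without RT-112 CD44 High replicate 2, 10 without CD44v6 replicate 3, and 1 to 3 in the other such fits. In RT-112 CDH1 was at 301, 331 and 283 CPM in CD44 High and at 341, 343 and 343 CPM in CD44v6. The log2 fold change there was 0.14 (unadjusted p = 0.0783).

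As a measure of RT-112 RNA in the J82 libraries, a panel of 47 genes (at least 100 CPM in RT-112 parental and under 0.5 CPM in J82 parental, CDH1 left out) was summed. The panel summed to 4.13, 3.68 and 6.04 CPM in CD44v6 and to 3.70, 2.69 and 5.49 CPM in CD44 High. The groups overlapped (exact permutation test, two-sided p = 0.6, where 0.1 is the smallest p possible). KRT13, at 4147 CPM in RT-112 parental cells, had 0 counts in all 12 J82 libraries. KRT5 and KRT4 had 0 counts in the 6 libraries, FABP4 had 0 in CD44v6 and 4 in CD44 High, H1-5 had 1 and 0, and UPK1B had 2 and 0. The gap in CDH1 between the groups was 0.402% of the RT-112 parental level, and the gap in the panel was 0.00417% of its RT-112 parental sum.

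**Figure D3:**
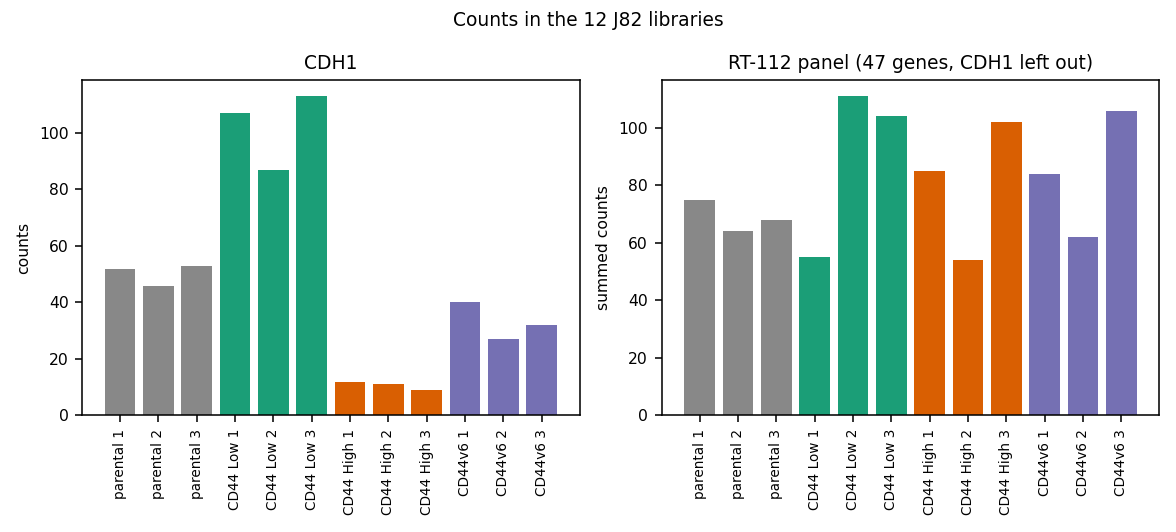
Counts of CDH1 (left) and summed counts of the 47-gene RT-112 panel (right) in the 12 J82 libraries, as bars from 0. CDH1 is at 9 to 12 counts in CD44 High, 27 to 40 in CD44v6 and higher in parental and CD44 Low, while the panel sums of CD44v6 and CD44 High overlap.

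Most other epithelial genes lay near 0. Of 20 tested epithelial genes, 1 was higher and 1 lower at an unadjusted p under 0.05, beside 5.98% and 3.65% of all genes. The list median was 0.09 (0.03 without CD44v6 replicate 2). SPINT2, an inhibitor of the HGF-activating protease, was at 10.8, 7.34 and 10.5 CPM in CD44v6 against 16.4, 15.4 and 13.1 CPM, lower by 0.65 (adjusted p = 0.397). MAL2 was at -0.33 with overlapping values. GRHL1 was at 0.52 without overlap (unadjusted p = 0.0748), and at 0.30 without CD44v6 replicate 2. Of 24 tested mesenchymal genes, 0 were higher and 2 lower, beside the same 5.98% and 3.65% of all genes. The 2 were WNT5B, at 72.3, 51.6 and 67.1 CPM against 85.2, 83.8 and 79.9 CPM, and VIM, the intermediate filament vimentin, at 565, 536 and 527 CPM against 629, 616 and 592 CPM. Neither overlapped, and the log2 fold changes were -0.38 and -0.17 (adjusted p = 0.457 and 0.517). Without CD44v6 replicate 2 they were -0.25 for WNT5B and -0.16 for VIM (unadjusted p = 0.0255 and 0.0681). Among 13 basal urothelial genes TRIM29 was at 1.07, with 1.19 CPM in CD44v6 replicate 2 below the highest CD44 High value of 1.32 CPM. COL17A1 was at -1.22 with overlapping values (unadjusted p = 0.0863). The basal median was 0.22, and no basal gene but TRIM29 had an unadjusted p under 0.05. Among 13 luminal genes BAMBI was lower by 0.41 (unadjusted p = 0.0329, and 0.0659 without CD44v6 replicate 2). PPARG was at -0.22 with overlap, and at -0.31 (unadjusted p = 0.0169) without CD44v6 replicate 2. FGFR3 went the other way, at 0.43 with overlapping values (unadjusted p = 0.167). No luminal gene but BAMBI had an unadjusted p under 0.05 with all libraries.

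Genes with long transcripts were higher in CD44v6 and genes with short transcripts lower. In 5 equal bins of longest transcript length, the median log2 fold change ran -0.12, -0.06, -0.02, 0.04 and 0.14 from shortest to longest. In the longest bin (5717 bases and more) 15.8% of 2987 genes were higher at an unadjusted p under 0.05, and in the shortest 2.24%. The pattern moved with CD44v6 replicate 2, where the longest bin lay 0.28 above and the shortest 0.23 below the CD44 High mean. In replicates 1 and 3 of CD44v6 the longest bin lay 0.10 and 0.01 above and the shortest 0.06 and 0.03 below. Without replicate 2 the 5 medians were -0.06, -0.02, 0, 0.01 and 0.06. CD44 Low replicate 1 showed a like gap, 0.23 and -0.13. The cause of the pattern was not tested.

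**Figure D4:**
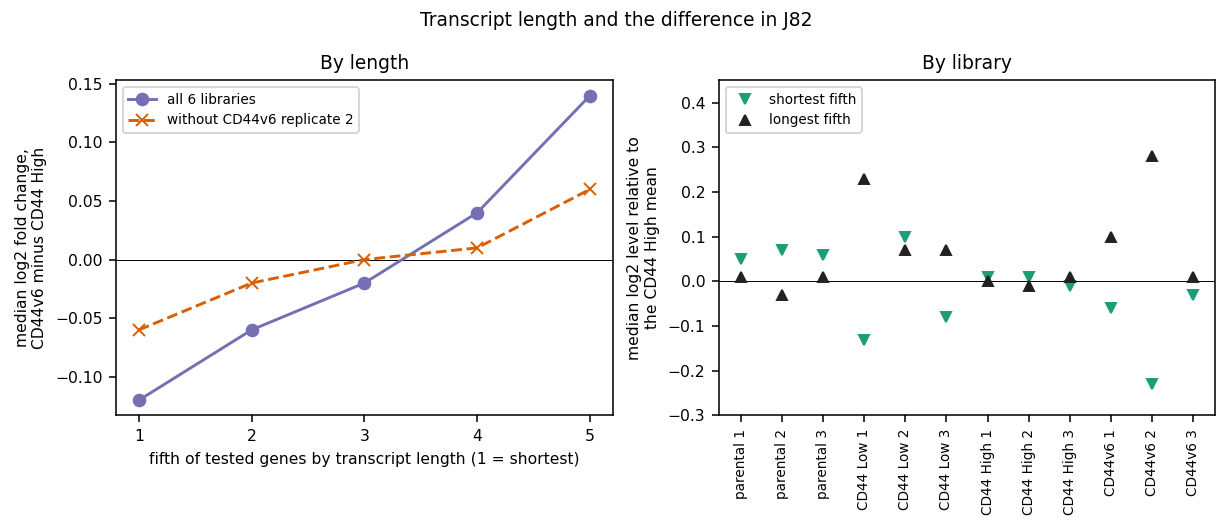
Left, median log2 fold change (CD44v6 minus CD44 High) of tested genes in 5 bins of longest transcript length, with and without CD44v6 replicate 2. Right, median log2 level of the shortest and longest bins in each J82 library relative to the CD44 High mean; the bins are farthest apart in CD44v6 replicate 2.

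Several lists of long or short genes lay on the side of 0 that their length class did. Chromatin regulators mutated in urothelial cancer, with a median length of 8612 bases, had a median of 0.29. At an unadjusted p under 0.05, 15 of 30 were higher and 0 lower, beside 5.98% and 3.65% of all genes. In the longest bin 15.8% of genes were higher. Only 2 of the 30 were higher without overlap, near the share of 5.82% over all genes. KMT2D, a histone methyltransferase, was at 37.4, 132 and 19.5 CPM in CD44v6 against 17.2, 22.0 and 29.3 CPM, so its log2 fold change of 1.46 (adjusted p = 0.502) came with 1 high library and was 0.33 without it. Without that library the list median was 0.11 with 2 members higher (3.79% of all genes), and with length and GC offsets besides it was 0.02. STAG2, a cohesin subunit, kept separate groups at 536, 483 and 515 CPM against 456, 397 and 419 CPM (log2 fold change 0.27, adjusted p = 0.457, and 0.31 without replicate 2). Of 14 long nuclear RNAs NEAT1, the scaffold of paraspeckles, was at 497, 463 and 306 CPM against 266, 248 and 248 CPM. It was higher by 0.73 (adjusted p = 0.457) and by 0.66 without replicate 2. Its longest transcript has 22743 bases, and with length and GC offsets the difference was 0.345 (unadjusted p = 0.0434). Ribosomal proteins had a median of -0.17 (5 of 74 lower, 0 higher), and -0.09 without replicate 2. Oxidative phosphorylation was at -0.15 (3 of 76 lower, 0 higher), and at -0.05 without it. The proteasome was at -0.16 (4 of 31 lower, 0 higher), and at -0.11 without it. Of all genes 3.65% were lower and 5.98% higher. NDUFB4, a subunit of respiratory complex I, was at 22.5, 21.1 and 30.1 CPM against 38.3, 35.9 and 32.5 CPM, and RPL37A at 186, 162 and 191 CPM against 233, 247 and 206 CPM, neither with overlap. PSMA1, a core proteasome subunit, was at -0.26.

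The medians of interferon-induced and antigen presentation genes lay below 0. Of 40 interferon genes 5 were lower and 1 higher at an unadjusted p under 0.05, beside 3.65% and 5.98% of all genes. Without overlap 8 were lower and 1 higher, beside 6.24% and 5.82%, and the median was -0.18. Without CD44v6 replicate 2 the median was -0.08 with 3 lower and 1 higher, beside 2.42% and 3.79%. OASL was at 22.1, 23.9 and 24.5 CPM in CD44v6 against 29.9, 30.4 and 30.2 CPM, lower by 0.36 (SE 0.10, adjusted p = 0.397). IFI27 was at 201, 168 and 208 CPM against 245, 222 and 237 CPM, and the log2 fold change was -0.29. SAMD9 went the other way, at 442, 392 and 376 CPM against 358, 296 and 307 CPM. Its log2 fold change was 0.33, and its longest transcript has 6852 bases. HERC6 was at -0.30 with a narrow overlap. Of 28 antigen presentation genes 6 were lower and 0 higher (3.65% and 5.98% of all genes), with a median of -0.14. Without replicate 2, 4 were lower (2.42% of all genes), with a median of -0.10. TAP1, which loads peptides into the endoplasmic reticulum, was at 93.3, 98.5 and 101 CPM against 125, 118 and 108 CPM. HLA-B was at 1312, 1195 and 1324 CPM against 1475, 1411 and 1467 CPM, lower by 0.18, and reads of HLA genes can be shared with near relatives. PSMB9, an immunoproteasome subunit, was lower by 0.37. ERAP2 was at -0.33, and at -0.24 (unadjusted p = 0.0518) without replicate 2.

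Signalling lists held from 0 to 4 genes in either direction at an unadjusted p under 0.05, where 5.98% of all genes were higher and 3.65% lower. Of 32 immediate-early and stress genes 0 were higher and 0 lower at an unadjusted p under 0.05, with a median of 0.02. JUN was at 567, 494 and 555 CPM in CD44v6 against 526, 335 and 496 CPM, which overlap. Of 24 ERK feedback genes 2 were higher and 1 lower, and 1 was higher and 3 lower without CD44v6 replicate 2. The lower one was DUSP6, a phosphatase of ERK, at 17.1, 15.8 and 19.8 CPM against 28.3, 27.8 and 18.7 CPM, with 1 overlapping CD44 High value. The 2 higher were RASA2, at 0.34 without overlap, and SPRED2, at 0.61 with overlapping values. Without CD44v6 replicate 2 RASA2 was at 0.30 and SPRED2 at 0.13. Of 30 NF-kB targets 2 were higher and 1 lower. ICAM1, an adhesion molecule for leukocytes, was at 54.2, 54.9 and 58.8 CPM against 41.7, 44.3 and 40.5 CPM, higher by 0.41 (adjusted p = 0.372). BCL3 was higher by 1.01, and 0.53 without replicate 2, and CCL5 lower by 0.44, and by 0.27 (unadjusted p = 0.138) without it. Of 16 genes of the EGFR family and ligands, BTC was lower by 0.74 and ADAM10 higher by 0.19 (unadjusted p = 0.0451, and 0.0946 without replicate 2). Of 29 WNT pathway genes 2 were higher and 4 lower, with the same counts without replicate 2, and the receptors differed in sign, with FZD2 at -0.44, FZD7 at -0.44 and FZD1 at 0.50. FZD7 did not overlap. Of 32 TGF-beta pathway genes 4 were higher and 2 lower, and 2 were higher and 1 lower without replicate 2. TGFBI, a matrix protein induced by TGF-beta, was at 110.4, 126 and 93.3 CPM against 158, 173 and 114 CPM, with a log2 fold change of -0.44. Of 24 YAP and TEAD targets 1 was higher and 2 lower, and 1 and 1 without replicate 2. NT5E, the ectoenzyme CD73, was at 118, 98.2 and 130 CPM against 156, 145 and 155 CPM without overlap, lower by 0.40 (adjusted p = 0.397).

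The platinum, gemcitabine, NRF2, BCL2 and stem-like lists held from 0 to 3 genes in either direction at an unadjusted p under 0.05. Of all genes 5.98% were higher and 3.65% lower. Of 27 platinum and drug efflux genes 0 were higher and 1 lower, and of 22 gemcitabine and nucleotide genes 0 were higher and 2 lower. The 2 were NT5E, given above, and CDA. CDA was at 6.99, 4.42 and 6.42 CPM in CD44v6 against 10.1, 9.16 and 11.2 CPM, without overlap. Its log2 fold change was -0.77 (edgeR adjusted p = 0.474), and -0.59 without CD44v6 replicate 2. Of 30 NRF2 and glutathione genes 1 was higher and 3 lower, and of 17 BCL2 family genes 1 and 1. Of 16 stem-like genes 2 were higher and 0 lower, ALDH1A2 at 1.02 and SOX4 at 0.34. These were 0.29 and 0.19 without CD44v6 replicate 2. Cholesterol synthesis had a median of -0.10 with 4 of 25 genes lower and 0 higher, beside 3.65% and 5.98% of all genes. Without CD44v6 replicate 2, 2 were lower and 0 higher, beside 2.42% and 3.79%. MSMO1, an enzyme of that pathway, was at 63.4, 49.1 and 65.3 CPM against 94.0, 76.7 and 70.6 CPM, lower by 0.44 without overlap (adjusted p = 0.401). Over all 46 lists the medians ran from -0.30 (mitosis) to 0.29 (chromatin regulators). The median transcript length was 3487 bases in the mitosis list and 8612 in the chromatin list, beside 3366 over all genes.

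**Figure D5:**
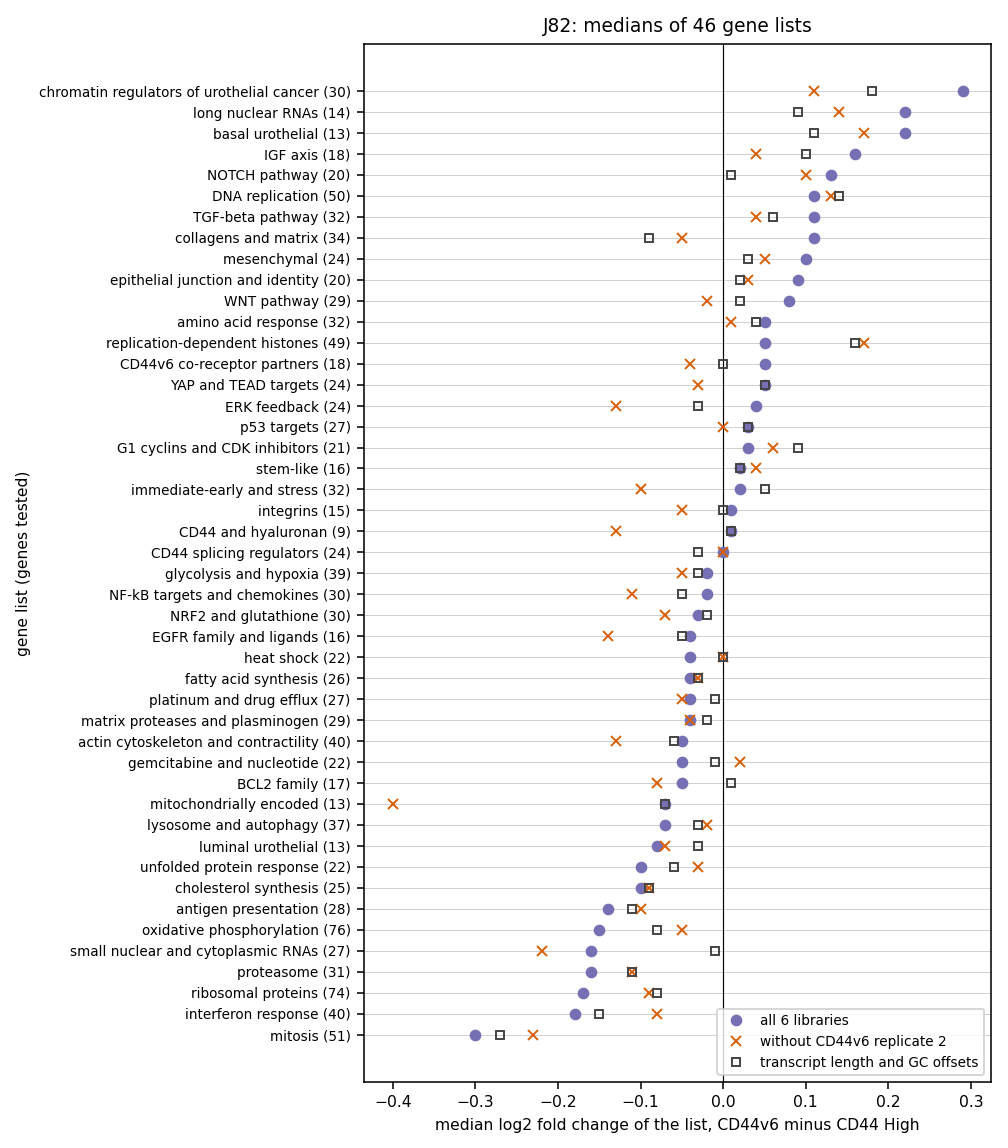
Median log2 fold change (CD44v6 minus CD44 High, horizontal axis) of each of 46 gene lists, with genes tested in brackets, for all 6 libraries (dots), without CD44v6 replicate 2 (crosses) and with length and GC offsets (squares). Mitosis is at -0.30, -0.23 and -0.27, and chromatin regulators at 0.29, 0.11 and 0.18.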

How the data were processed

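For 24 libraries, the authors deposited unnormalised read counts, with gene symbols as row names. HISAT2, StringTie and the build GRCh37 are named in the submitters' processing notes; versions, annotation and strand use are not given in the sources used here. Columns were matched to samples by title (0 unmatched).

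Differences were tested with edgeR 4.0.16 under R 4.3.3 (filterByExpr, TMM, quasi-likelihood F-test, group as the only term) over 12 J82 libraries, with Benjamini-Hochberg adjustment over 15951 genes. CPM values are TMM-scaled. The line difference was an interaction contrast over 24 libraries. Alternatives used DESeq2 1.42.0, limma 3.58.1 (voom with quality weights), other scalings, filters and sample sets, a replicate block, and leaving out each library. Transcript length and GC, from the longest GENCODE 29 transcript of each symbol (30914 of 35993 symbols), entered as offsets in fits chosen after seeing the data. SEs were derived from the F statistic.

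The comparison, the 46 lists (1380 genes, 1240 tested) and the naming rule were chosen with earlier results of these data known. Named were CD44, CDH1, the 10 higher and 10 lower genes (average log2 CPM of at least 3) and 5 and 5 (0 to 3) with the smallest p among those without overlap, up to 4 members per list, and the top 5 panel genes; others named (HNRNPUL2-BSCL2, list members beyond 4) were chosen after their values were seen. XIST and Y-linked genes were left out of the panel. Scripts were tested on simulated data. Figures used Python 3.11.15 and matplotlib 3.10.9.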

Additional observations from a re-analysis of the deposited data

Results flagged for a closer look

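CDH1 differed between the lines in the test of that difference itself: CD44v6 minus CD44 High was larger by 1.61 on the log2 scale in J82 than in RT-112 (SE 0.21, edgeR adjusted p = 0.0034), and the 3 CD44v6 values were above the 3 CD44 High values in J82 at 27 to 40 against 9 to 12 counts. In RT-112 the CD44v6 values, at 341 to 343 CPM, also lay above the CD44 High values of 283 to 331 CPM. The direction was thus the same in both lines, at far higher levels in RT-112. Why the lines differ was not tested.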

How the results depend on the processing

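The count of genes called (0 in the fit over 12 J82 libraries) became 74 with DESeq2, 10 with limma voom and quality weights, 5 with all 24 libraries, 1 with the 6 libraries of the 2 groups alone, 1 with length and GC offsets, and 0 to 2 over the fits that left out 1 replicate (2, ZNF292 and GBP1P1, without CD44v6 replicate 3). It was 0 with both other scalings, both other filters, the replicate block, and length and GC offsets without CD44v6 replicate 2. The gene called with the 6 libraries alone was the readthrough gene HNRNPUL2-BSCL2, given above as uncertain. BSCL2 was among the 5 called with all 24 libraries. KPNA2 was called with DESeq2, quality weights, all 24 libraries, and length and GC offsets. At an unadjusted p under 0.05, genes higher numbered 954 and genes lower 582. These became 584 and 273 with the 2 groups alone, 1264 and 1057 with quality weights, and 526 and 496 with length and GC offsets without CD44v6 replicate 2. Leaving out 1 replicate gave 605 to 1693 higher and 362 to 1119 lower; the lowest higher count came without CD44v6 replicate 2 and the highest of both without CD44v6 replicate 3, with 633 and 411 without CD44 High replicate 2 and 757 and 362 without CD44 High replicate 1. With upper-quartile scaling the split moved to 828 higher and 690 lower. The replicate block gave 0 called genes and 972 higher and 661 lower. Same-numbered libraries correlated at 0.294, 0.0191 and 0.224 after group means were removed. CD44v6 replicates 1 and 3 each correlated best with the same-numbered CD44 High library, and replicate 2 with CD44 High replicate 3. The labels do not say what the numbers mark, so the main fit did not treat them as pairs.

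The line difference called 1 gene. Leaving out 1 J82 replicate gave 1 to 10, and leaving out 1 RT-112 replicate (chosen after seeing the data) 1 to 410, with 410 without RT-112 CD44 High replicate 2. The gap in the RT-112 panel, 0.657 CPM, was 1.22 with the wider cut, -0.0901 with the stricter cut and -0.0557 to 1.42 over fits without 1 replicate. CDH1 did not meet the panel's cut, so including it changed nothing. For 31 named genes under their alternatives, 478 of 512 values stayed on the same side of the threshold with the same sign, 31 moved past it and 3 changed sign without being called. Of 644 list medians, 613 moved by less than 1 SD between replicates.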

Other observations

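Protein-coding zinc finger genes (symbols starting with ZNF), a set chosen after values were seen and so not tested, lay higher in CD44v6. The 223 tested on chromosome 19 had a median log2 fold change of 0.15, with 41 higher and 0 lower without overlap between the groups, beside 5.82% and 6.24% of all genes. The median was 0.19 without CD44v6 replicate 2 and 0.15 with length and GC offsets. The 232 tested elsewhere had a median of 0.11 (30 higher, 5 lower), and the 766 other genes of chromosome 19 had 0.05 (38 higher, 35 lower). Over all 989 tested genes of chromosome 19 the median was 0.08 in J82 and -0.01 in RT-112. The RT-112 median of the zinc finger genes alone was not computed. Many zinc finger genes are close copies of each other, between which reads can be split.

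FAM111B and AKAP9, both called with quality weights (log2 fold changes 0.70 and 0.82, adjusted p = 0.0455 for each) and with DESeq2 (0.59 and 0.76), were not called in edgeR. FAM111B is a protease, and AKAP9 is a large scaffold of the centrosome and Golgi. SYT15 was lower by 0.75 with quality weights (adjusted p = 0.0455).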
